A study of Rattus norvegicus with 5 samples.

Results

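Phagocytic and scavenger receptors and their ligands were read in parietal cortex from rats injected with kaolin and from rats injected with saline. The group holds 9 genes, Msr1, Cd36, Mrc1, Cd163, Axl, Mertk, Gas6, Spp1 and Gpnmb, and every probe carrying one of these names, or an older name of the same rat gene, was taken. That gave 14 of the 41012 non-control probes on the array, and all 14 were among the 29106 probes bright enough to be tested. Kaolin, a clay, obstructs cerebrospinal fluid when injected and is used to produce hydrocephalus, an enlargement of the ventricles. Rats received kaolin or saline on postnatal day 1, stayed with the dam, and gave cortex on postnatal day 22, 21 days after kaolin. Each of 5 two-colour oligonucleotide arrays was hybridised with total RNA of 1 kaolin sample, labelled with Cy3, together with that of 1 saline sample, labelled with Cy5, which makes 5 samples a group. The labels give neither strain nor sex, and do not say whether a sample was 1 animal, so p-values measure the spread between arrays. The dyes were never exchanged, so dye and treatment cannot be told apart.

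These genes belong to the machinery by which macrophages and microglia bind and ingest lipoproteins, debris and dying cells. Scavenger receptors (Msr1, Cd36) bind modified lipoproteins and other polyanionic ligands, Mrc1 and Cd163 take up mannosylated glycoproteins and haemoglobin bound to haptoglobin, and the receptor kinases Axl and Mertk recognise phosphatidylserine on dying cells through the bridging ligand Gas6. Spp1 (osteopontin) is a secreted ligand of integrins and of Cd44, and Gpnmb is a transmembrane glycoprotein of late endosomes and lysosomes; both are made in quantity by lipid-laden phagocytes. In healthy brain Mrc1 and Cd163 mark macrophages of the meninges, choroid plexus and perivascular spaces rather than microglia.

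Spp1 and Gpnmb had the largest ratios in the group, and of the 29106 tested probes Spp1 ranked 1 and Gpnmb 7 by mean ratio. Msr1, Mrc1 and Axl were moderately higher in kaolin cortex, Gas6 and Cd163 slightly higher, and Mertk and Cd36 lay near 0. The high values came from arrays 3, 4 and 5; on arrays 1 and 2 the brightest probes of Spp1, Gpnmb, Msr1, Mrc1 and Axl lay between -0.14 and 0.52. No member passed the test: limma called 0 of the 14 member probes at an adjusted p of 0.05 and 0 of all 29106 probes (0%). At an unadjusted p under 0.05, limma took 8 of the 14 member probes, all of them higher in kaolin, against 5281 probes in all (18.1%), of which 2569 were higher in kaolin (8.83%). Of the 9 genes, each read by its brightest probe, 8 had a mean above 0, with a median log2 ratio of 0.48, against 49.2% of all tested probes with a mean above 0 and a median of -0.0033. Ratios were above 0 on 5 of 5 arrays for 4 member probes, against 6.24% of all tested probes, and on at least 4 arrays for 10 member probes, against 28.2%. The brightness filter asks for either channel to be well above background on at least 3 arrays. Of the 14 member probes, 3 (that of Msr1 and both of Cd163) met it only with their kaolin samples, so these counts are a description. In bulk tissue, more cells of a type and more RNA per cell cannot be told apart.

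**Figure D1:**
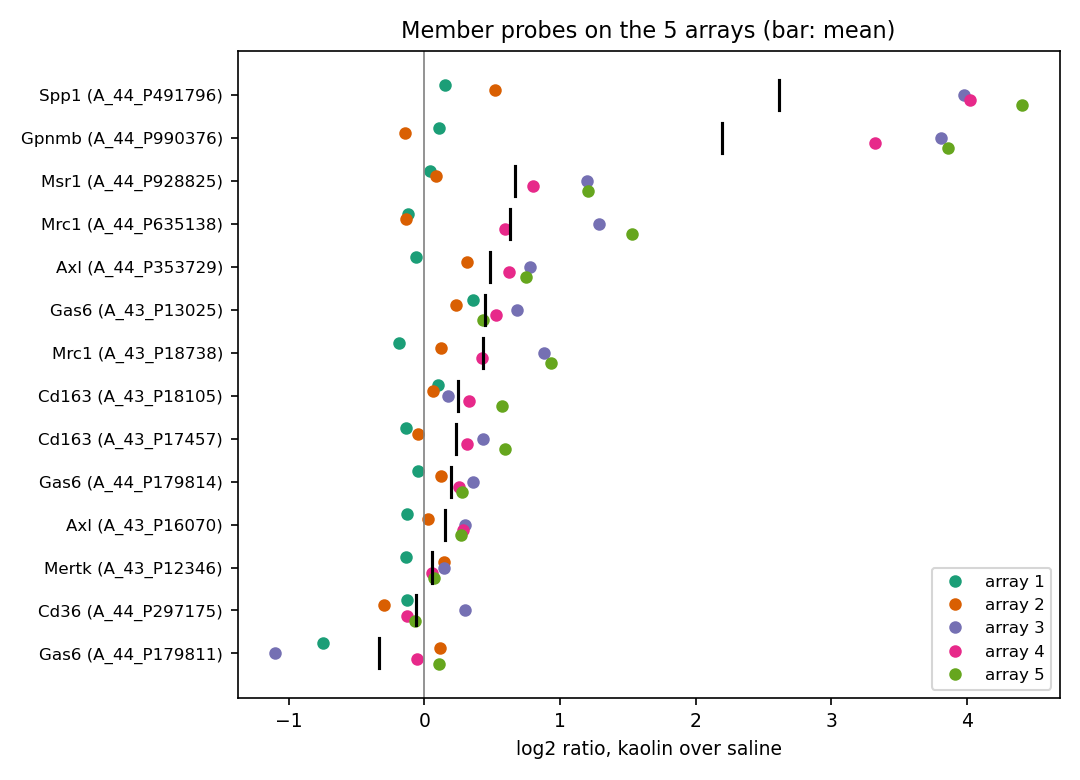
Log2 ratio of kaolin over saline (x axis) of each member probe (rows, sorted by mean) on the 5 arrays (coloured points), with the mean as a bar. Spp1 and Gpnmb lie between 3.32 and 4.41 on arrays 3, 4 and 5 and between -0.14 and 0.52 on arrays 1 and 2.

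The arrays differed from each other as a whole. Over all tested probes the ratios of arrays 3 and 4 correlated at 0.83, those of arrays 3 and 5 at 0.57, and those of arrays 4 and 5 at 0.45. Array 1 correlated with array 3 at 0.53, with array 4 at 0.48 and with array 5 at 0.12, although Spp1 and Gpnmb, high on arrays 3, 4 and 5, were at 0.15 and 0.11 on it. Array 2 correlated with array 1 at -0.37 and with the others at -0.17 to -0.06. These correlations are across probes, which are not independent. Arrays 1 to 4 shared a slide and array 5 was on another. Between 27951 and 29380 probes were well above background in kaolin samples and between 27367 and 28924 in saline samples. Precision is limited by having 5 arrays. Of the 10 cortical neuron markers, 9 were found on the array, and each of the 9 was well above background on some array.

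The promoters of the 3 genes with the highest mean ratios that have an entry in RefSeq's table are shown beside those of Mertk and Cd36, the 2 members near 0. Each is the 250 bases before the start of the gene in RefSeq on GRCr8, 5′ to 3′ along the gene. Capitals mark matches on either strand to 3 motifs. AP-1 binds TGANTCA, which reads alike on both strands. The M-box core of the MITF and TFE factors is CACATG, or on the opposite strand CATGTG, and is also one form of the broader E-box. The core of PU.1 sites is GAGGAA, or on the opposite strand TTCCTC.
Spp1 (chr14:5619805-5620054, - strand): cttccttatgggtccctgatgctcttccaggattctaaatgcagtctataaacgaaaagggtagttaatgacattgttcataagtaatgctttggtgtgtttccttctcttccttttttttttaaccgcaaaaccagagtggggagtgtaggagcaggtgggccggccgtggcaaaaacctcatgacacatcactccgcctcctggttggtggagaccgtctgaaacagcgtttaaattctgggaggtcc
Gpnmb (chr4:79340878-79341127, + strand): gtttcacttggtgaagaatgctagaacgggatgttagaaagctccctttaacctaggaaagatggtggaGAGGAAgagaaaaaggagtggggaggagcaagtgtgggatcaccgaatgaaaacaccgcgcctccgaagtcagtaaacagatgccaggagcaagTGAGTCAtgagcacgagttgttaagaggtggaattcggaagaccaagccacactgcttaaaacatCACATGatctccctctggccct
Mrc1 (chr17:82157475-82157724, + strand): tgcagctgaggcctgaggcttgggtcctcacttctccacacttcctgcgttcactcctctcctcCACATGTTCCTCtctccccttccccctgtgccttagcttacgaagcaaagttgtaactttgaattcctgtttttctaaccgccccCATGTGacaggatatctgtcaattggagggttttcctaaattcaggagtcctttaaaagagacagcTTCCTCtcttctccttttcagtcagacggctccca
Mertk (chr3:136392324-136392573, + strand): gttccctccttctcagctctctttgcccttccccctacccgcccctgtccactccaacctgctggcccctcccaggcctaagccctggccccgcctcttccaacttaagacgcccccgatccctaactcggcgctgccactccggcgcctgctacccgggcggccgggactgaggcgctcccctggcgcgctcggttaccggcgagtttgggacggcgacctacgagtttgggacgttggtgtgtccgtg
Cd36 (chr4:18246332-18246581, + strand): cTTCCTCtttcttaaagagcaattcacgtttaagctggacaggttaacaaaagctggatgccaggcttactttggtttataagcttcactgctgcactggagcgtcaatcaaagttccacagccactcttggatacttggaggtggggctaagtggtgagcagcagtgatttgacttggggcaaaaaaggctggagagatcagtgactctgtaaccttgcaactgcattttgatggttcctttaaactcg
Gpnmb had 1 match to each motif, with TGAGTCA beginning 87 bases before the start, CACATG 22 bases before it and GAGGAA 181 bases before it. Mrc1 held CACATG at 186 and CATGTG at 101 bases before the start, and TTCCTC at 180 and 35. Cd36 held TTCCTC at 249 bases before the start. The Spp1 and Mertk windows held none of these letters. Over 33469 such windows, 6.34% held the AP-1 motif, 12.1% the M-box core and 23.3% the PU.1 core. A match is a description of letters and not a measured site, and its absence says only that these letters are not in this window.

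Spp1 was read by 1 probe (A_44_P491796; rn4 chr14:6422382-6422441, minus strand) spotted 10 times on each array. Its normalized log2 signal was 8.65, 7.99, 13.89, 13.21 and 13.25 in the kaolin samples of arrays 1 to 5, against 8.50, 7.47, 9.91, 9.19 and 8.84 in the saline samples. The log2 ratios were thus 0.15, 0.52, 3.98, 4.02 and 4.41, and the last 3 correspond to 15.8-fold, 16.3-fold and 21.2-fold. Kaolin exceeded saline on 5 of 5 arrays, but the kaolin signals of arrays 1 and 2 lay within the range of the saline signals, so the groups overlapped. The saline signals themselves were spread widely, with the lowest on array 2 and the highest on array 3. The mean log2 ratio was 2.62 ± 2.09 (SD, n = 5), a 6.14-fold value, with an adjusted p of 0.243 in limma. The SD over the 10 spots, taken from the software's processed signals, was 0.04 to 0.08 within an array, so the spread between arrays was far larger than the spread between spots.

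Gpnmb (A_44_P990376; rn4 chr4:77182198-77182257) was likewise high on arrays 3, 4 and 5. Its log2 signal was 8.19, 8.22, 12.80, 11.91 and 12.78 in kaolin, against 8.09, 8.36, 8.99, 8.58 and 8.91 in saline. Arrays 3, 4 and 5 had kaolin signals above every saline signal, and the kaolin samples of arrays 1 and 2 lay within the saline range. The ratios were 0.11, -0.14, 3.81, 3.32 and 3.86, with a mean of 2.19 ± 2.03 (SD, n = 5), a 4.57-fold value (adjusted p = 0.243 in limma). A mean log2 ratio of at least 1 was found for 148 of all tested probes (0.508%) and one of at least 2 for 8 (0.0275%), and these 2 members were in both sets. Spp1 exceeded Gpnmb in log2 ratio by 0.43 ± 0.30 (SD, n = 5), higher on 5 of 5 arrays. This and 3 further pairs of members with related roles, chosen after their values were seen, were compared by an exact two-sided sign permutation over arrays, which cannot go below 0.0625 with 5 arrays; here it gave p = 0.0625, and 0.0833 adjusted over the 4 pairs. The pairs of Msr1 with Cd36 and of Mrc1 with Cd163 are not given, since Msr1 and Cd163 met the brightness filter only with their kaolin samples.

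**Figure D2:**
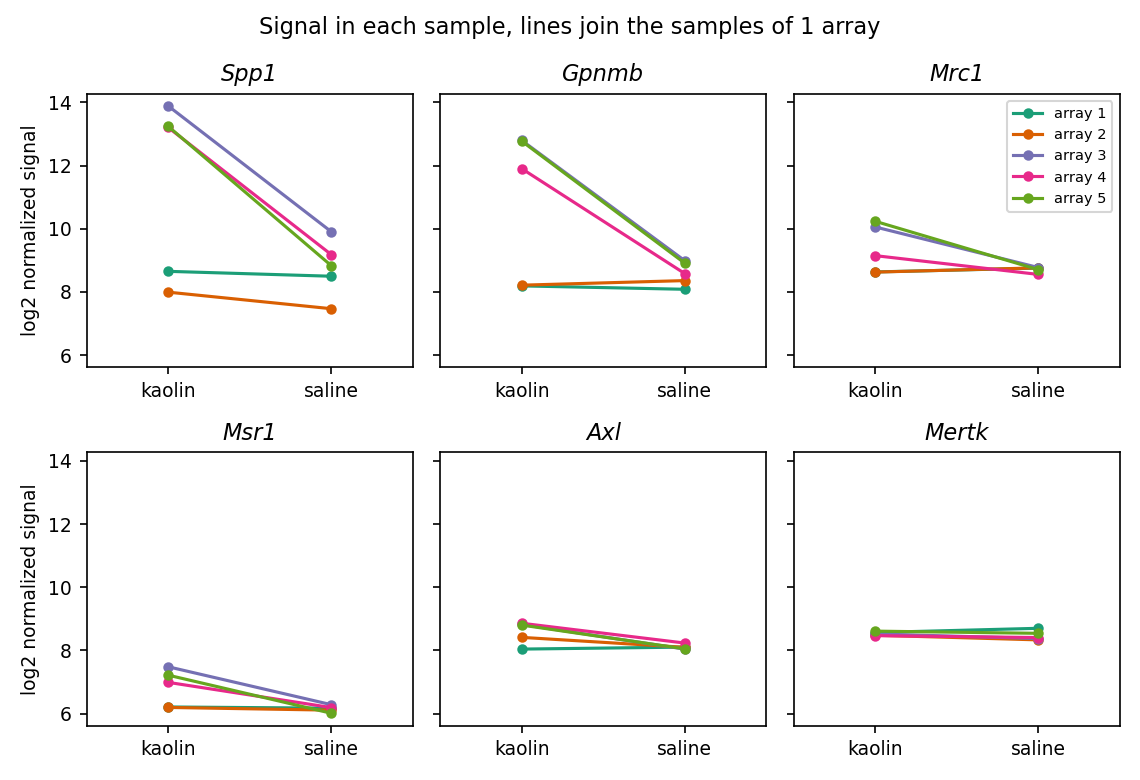
Log2 normalized signal (y axis) in the kaolin sample and the saline sample of each array, joined by a line, for 6 members. For Spp1 and Gpnmb the kaolin samples of arrays 3, 4 and 5 lie above 11.9 and those of arrays 1 and 2 below 8.7; for Mertk all 10 samples lie between 8.34 and 8.70.

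Msr1, the class A macrophage scavenger receptor, was listed in the files under an older name (RGD1564316) and read by 1 dim probe (A_44_P928825; rn4 chr16:56293586-56293645). It was not well above background in any saline sample, nor in the kaolin samples of arrays 1 and 2, and was well above it in the kaolin samples of arrays 3, 4 and 5. Its log2 signal was 6.21, 6.20, 7.48, 6.99 and 7.22 in kaolin and 6.17, 6.11, 6.29, 6.19 and 6.01 in saline. Saline was then taken at no less than the dimmest signal called well above background on its array. On that basis the kaolin mean of Msr1 was 1.54-fold the saline mean. Kaolin was itself not well above background on arrays 1 and 2, so this is not a strict lower bound. This fold value compares means of normalized signals per channel and is open to dye bias, since no array exchanged the dyes. The measured log2 ratio was 0.67 ± 0.58 (SD, n = 5; adjusted p = 0.243 in limma), positive on 5 of 5 arrays. The probe entered the test through its 3 kaolin samples alone, so a positive ratio was built into its selection. Without the offset added in background correction the mean was 1.34, and on the software's processed signals it was 2.12, so the size of this ratio depended on how dim signals were treated. Cd36, the class B scavenger receptor and fatty acid transporter, also present in brain endothelium, did not share the pattern. Its probe (A_44_P297175; rn4 chr4:13518295-13519542), spotted 10 times, gave log2 ratios of -0.13, -0.30, 0.30, -0.13 and -0.07, with only array 3 above 0 and a mean of -0.06 ± 0.22 (SD, n = 5; adjusted p = 0.724 in limma). Spots of Cd36 within an array had an SD of 0.13 to 0.21.

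Mrc1, the macrophage mannose receptor, had 2 probes. The brighter one (A_44_P635138; rn4 chr17:88492403-88492462) had log2 signals of 8.63, 8.63, 10.06, 9.15 and 10.24 in kaolin and of 8.76, 8.76, 8.77, 8.56 and 8.71 in saline. Saline samples were alike, and the kaolin samples of arrays 3, 4 and 5 stood above all of them while those of arrays 1 and 2 did not. The mean log2 ratio was 0.63 ± 0.77 (SD, n = 5; adjusted p = 0.278 in limma), and without array 5 it was 0.41. The dimmer probe (A_43_P18738; rn4 chr17:88489156-88491763) gave -0.19, 0.12, 0.88, 0.42 and 0.94, with a mean of 0.43 ± 0.48 (SD, n = 5; adjusted p = 0.264 in limma). Both probes thus had their lowest values on arrays 1 and 2 and their highest on arrays 3 and 5. Cd163, the haptoglobin and haemoglobin receptor, was dim. Its brighter probe (A_43_P17457; rn4 chr4:160407221-160407922) was well above background in 3 kaolin and 2 saline samples and had ratios of -0.14, -0.04, 0.43, 0.32 and 0.59, with a mean of 0.23 ± 0.31 (SD, n = 5; adjusted p = 0.332 in limma). That mean was 0.14 without array 5 and 0.98 in the software's log ratios. Its other probe (A_43_P18105; rn4 chr4:160406765-160406920) was well above background in the same 3 kaolin samples and in 0 saline samples. With saline treated as for Msr1, its kaolin mean was 1.16-fold the saline mean, again not a strict lower bound. Its measured log2 ratio was 0.25 ± 0.21 (SD, n = 5, adjusted p = 0.249 in limma). Neither Cd163 probe would have passed the filter on dim probes without its kaolin samples.

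Among the receptor kinases, Axl was higher in kaolin on 4 of 5 arrays and Mertk stayed near 0. The brighter Axl probe (A_44_P353729; rn4 chr1:80965095-80966812, minus strand) had log2 signals of 8.04, 8.42, 8.82, 8.86 and 8.80 in kaolin against 8.11, 8.10, 8.04, 8.24 and 8.05 in saline. Kaolin samples of arrays 2 to 5 exceeded every saline sample, and that of array 1 did not exceed its own saline sample. The mean log2 ratio was 0.48 ± 0.36 (SD, n = 5; adjusted p = 0.243 in limma). The second Axl probe (A_43_P16070; rn4 chr1:80967569-80969294, minus strand) was dimmer and gave a smaller mean of 0.15 ± 0.19 (SD, n = 5; adjusted p = 0.368 in limma), with the same array lowest. Mertk (A_43_P12346; rn4 chr3:116416248-116416307) had ratios of -0.13, 0.15, 0.14, 0.06 and 0.07 and a mean of 0.06 ± 0.11 (SD, n = 5; adjusted p = 0.669 in limma), which turned to -0.07 when arrays were centred on their median in place of loess. With that centring the median of all tested probes was itself -0.10. By its brighter probe, Axl exceeded Mertk in log2 ratio on 5 of 5 arrays. The differences were 0.07 and 0.17 on arrays 1 and 2 and 0.63, 0.57 and 0.68 on the others. The second Axl probe lay below Mertk on array 2, at 0.03 against 0.15. The mean difference between the brighter Axl probe and Mertk was 0.42 ± 0.28 (SD, n = 5, exact permutation p = 0.0625, adjusted 0.0833). That p is the lowest that 5 arrays allow, and the pair was chosen after its values were seen.

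The ligand Gas6 had 3 bright probes that disagreed. The probe nearest the 5′ side of the 3 (A_43_P13025; rn4 chr16:47145860-47145919) gave 0.36, 0.24, 0.68, 0.53 and 0.43, a mean of 0.45 ± 0.17 (SD, n = 5; adjusted p = 0.243 in limma). It had log2 signals of 11.90, 11.68, 12.15, 11.98 and 11.79 in kaolin and of 11.54, 11.44, 11.47, 11.45 and 11.35 in saline. It was the only one of the 14 member probes with every kaolin signal above every saline signal, which held for 423 of all tested probes (1.45%). The brightest probe (A_44_P179814; rn4 chr16:47146547-47146606) gave -0.04, 0.12, 0.36, 0.26 and 0.28, a mean of 0.20 ± 0.16 (SD, n = 5; adjusted p = 0.267 in limma), which median centring turned to -0.06. The median of all tested probes was -0.10 in that setting. The probe farthest downstream (A_44_P179811; rn4 chr16:47146890-47146949) gave -0.75, 0.12, -1.10, -0.05 and 0.11, a mean of -0.33 ± 0.56 (SD, n = 5; adjusted p = 0.377 in limma). Its lowest values fell on arrays 1 and 3, where the probe at the other end of the 3 read 0.36 and 0.68. The files list Ensembl and full-length cDNA entries for the first 2 of these probes and not for the third. No gene models on rn4 were used, so the exon or UTR each probe lies in is not given.

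**Figure D3:**
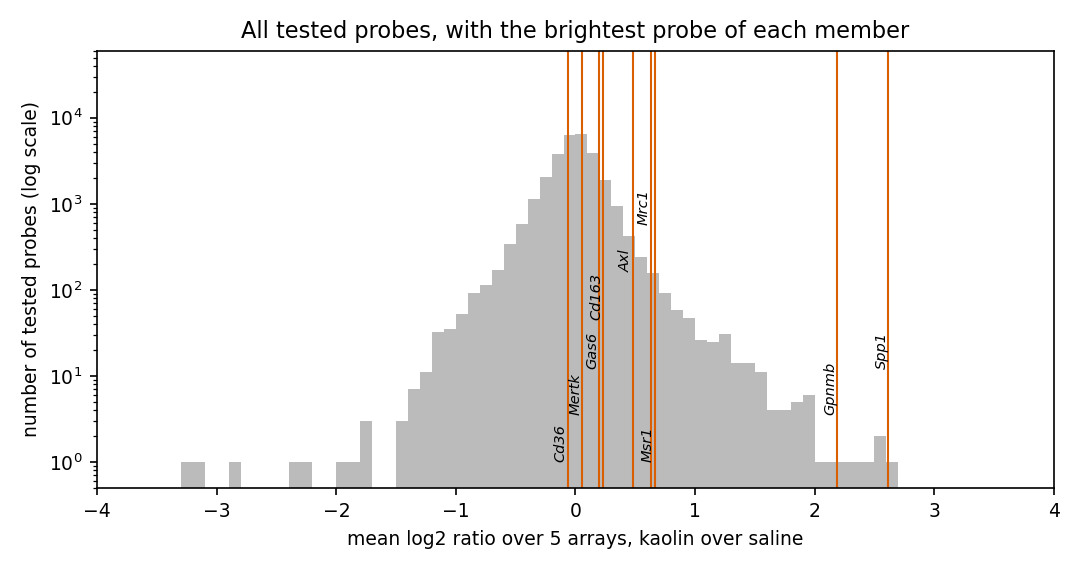
Number of tested probes (y axis, log scale) by mean log2 ratio of kaolin over saline (x axis, bins of 0.1), with lines at the brightest probe of each of the 9 members. Spp1 and Gpnmb lie in the far right tail with 2.62 and 2.19, and Cd36 and Mertk near the centre with -0.06 and 0.06.

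Left-out arrays and array weights moved the calls. Without array 2, 1518 of all probes passed in limma (5.22%), and of the members only the Gas6 probe A_43_P13025 did (adjusted p = 0.0412); Spp1 was at an adjusted p of 0.0561 and Gpnmb at 0.0576. With array weights estimated from the data, which gave array 2 a weight of 0.461 and array 4 a weight of 2.38, 3493 probes passed (12%), 5 of them member probes: Spp1, Gpnmb, Msr1, the brighter Axl probe and Gas6 A_43_P13025 (adjusted p = 0.0423 each). Since Msr1 entered the test through its kaolin samples alone, its place in that count is a description. Within the slide of arrays 1 to 4 the mean log2 ratio was 2.17 for Spp1, 1.77 for Gpnmb, 0.53 for Msr1, 0.41 for Mrc1, 0.41 for Axl, 0.18 for Gas6, 0.14 for Cd163, 0.05 for Mertk and -0.06 for Cd36, and 0 probes of any gene passed; the other slide held array 5 alone.

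The genes whose ratios most resembled those of a member were sought among 12037 other genes with an official symbol, as the smallest root-mean-square difference in log2 ratio over the 5 arrays. For Spp1 the nearest were Gpnmb (0.50), S100a6, a calcium-binding protein (0.74), and Fcgr3a, a receptor for IgG (0.84). For Gpnmb they were Fcgr3a (0.40), Timp1, an inhibitor of metalloproteinases (0.45), and Spp1 (0.50). Fcgr3a had ratios of 0.29, -0.18, 3.95, 2.88 and 3.12, and Timp1 of -0.20, -0.41, 3.16, 3.39 and 3.20. Nearest to Msr1 were B2m, the light chain of class I molecules (0.07), the C-type lectin receptor gene Clec4a1 (0.08) and the homeobox gene Dbx2 (0.09). Nearest to Mrc1 were Fgl2 (0.08), Igsf6 (0.12) and Smpdl3a (0.16). These genes were picked for their array-by-array likeness to a member, so the arrays on which they are high follow from the choice.

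Other genes of phagocytosis were read from 5 lists of 77 genes, of which 65 were found on the array and 55 tested. In limma 0 of the 55 passed in either direction, against 0% of all probes, while 17 had an unadjusted p under 0.05 and were higher in kaolin and 4 were lower. Of all tested probes, 8.83% were higher in kaolin at that threshold and 18.1% passed it in either direction. Among 10 ligands and partners of the Axl and Mertk receptor family, 8 had means above 0 and the median log2 ratio was 0.10. Lgals3, a galectin that also binds Mertk, stood at 1.89 ± 2.06 and the second bridging ligand Pros1 at 0.46 ± 0.46, while Tulp1 stood at -0.11 ± 0.86 and the sheddase Adam10 at -0.16 ± 0.20 (SD, n = 5 each). Among 12 tested scavenger and endocytic receptors, 8 had means above 0 and the median was 0.03. Cd14, the lipopolysaccharide co-receptor, stood at 1.40 ± 1.38 and the lysosomal Cd68 at 1.27 ± 1.26, while the lipoprotein receptors Lrp1 and Vldlr stood at -0.08 ± 0.32 and -0.19 ± 0.25. The distribution of both lists was thus centred near 0, with a few genes far to the right.

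Genes of apoptotic cell engulfment had 9 of 15 means above 0 and a median of 0.03. Anxa1, a phosphatidylserine-binding annexin, stood at 1.79 ± 1.75 and the nucleotide receptor P2ry6 at 0.94 ± 0.82, while the adaptor Elmo1 stood at -0.30 ± 0.33 and the lipid transporter Abca7 at -0.50 ± 0.46 (SD, n = 5 each). Of the 5 tested receptors of osteopontin, Cd44 stood at 1.25 ± 1.30, with ratios of 0.23, -0.48, 2.33, 1.84 and 2.35 on arrays 1 to 5. The integrin subunits of the same list lay between -0.10 (Itgav) and 0.05 (Itgb1), with Itgb3 at -0.04. Genes of lipid-laden phagocytes had the highest median of the 5 lists, 0.44, with 11 of 13 means above 0. Tyrobp, a signalling adaptor of microglia, stood at 1.53 ± 1.10 and its partner Trem2 at 1.01 ± 1.09, while the lipase Lpl stood at -0.12 ± 0.26 and Apoe at -0.33 ± 0.45. Apoe, the main apolipoprotein of brain, had its 2 lowest ratios on arrays 1 and 2 (-0.94 and -0.52).

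**Figure D4:**
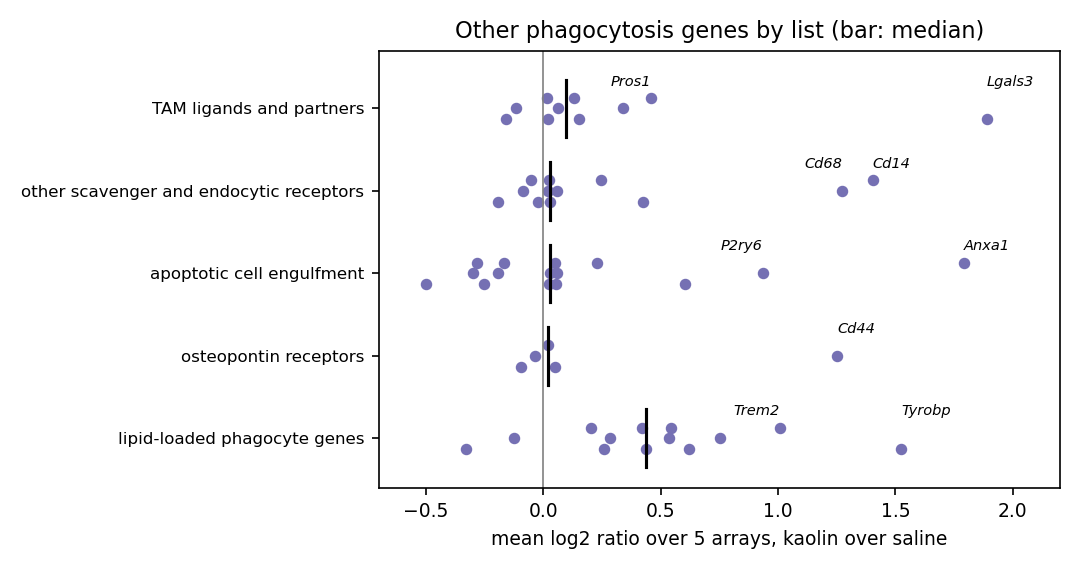
Mean log2 ratio of kaolin over saline (x axis) of each tested gene (points) in 5 lists (rows), with the list's median as a bar and the highest genes named. Medians run from 0.02 for osteopontin receptors to 0.44 for lipid-laden phagocyte genes, and Lgals3, Anxa1, Tyrobp, Cd14, Cd68, Cd44 and Trem2 lie above 1.

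Medians of macrophage and microglia markers were highest on arrays 3, 4 and 5. So were the ratios of Spp1, Gpnmb, Msr1, Mrc1, Axl and Cd163 and of the brightest Gas6 probe. Cd36 and Mertk did not share this. Msr1 and Cd163 met the brightness filter only with the kaolin samples of those arrays, so for them this is a description. Of 12 microglia and macrophage markers 10 were found and tested, 10 of 10 had means above 0, and their median log2 ratio on arrays 1 to 5 was -0.06, 0.08, 1.64, 1.16 and 1.29. Their summed signal ranged from 24832 to 102920 in kaolin and from 21721 to 26883 in saline, and each was well above background on some array. C1qb stood at 1.51 ± 1.06, C1qa at 1.30 ± 1.19 and Aif1 at 1.12 ± 0.84 (SD, n = 5 each). Spp1 and Gpnmb had larger ratios on arrays 3, 4 and 5 than the median marker did. They ranked 1 and 7 of all tested probes by mean ratio, so this is a description that follows from their rank. Of 9 markers of border-associated macrophages, 6 were found and tested, 6 of 6 had means above 0, and their medians were -0.23, -0.12, 1.20, 0.90 and 1.24, with summed signals of 1498 to 4651 in kaolin and 1559 to 1832 in saline. Folr2 stood at 0.91 ± 0.88 and Pf4 at 0.80 ± 1.23. The part of cell numbers in the members' ratios was not tested.

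Monocyte, granulocyte and lymphocyte markers were mostly too dim to be read. Of 11 listed, 9 were found and 3 tested, with medians over those 3 of -0.16, -0.16, -0.02, 0.13 and 0.07 on arrays 1 to 5, and Ccr2, Ly6c, Mpo, Cd3e and Ncr1 were well above background in 0 samples of either group. S100a8 stood at 0.09 ± 0.23 and S100a9 at -0.12 ± 0.19, and the summed signal was 842 to 873 in kaolin against 835 to 917 in saline. That sum includes the genes well above background in no sample, so its likeness between the groups says little about these cells. Astrocyte markers had 4 of 8 means above 0 and summed signals of 52619 to 88063 in kaolin against 58998 to 69179 in saline. Their medians on arrays 1 to 5 were -0.04, 0.24, 0.37, 0.05 and 0.36. Gfap stood at 1.81 ± 1.23 and Aqp4 at 0.43 ± 0.39. Ratios of Gfap were 0.39, 0.60, 2.81, 2.31 and 2.95, so it too was highest on arrays 3, 4 and 5. Meningeal fibroblast markers had 7 of 7 means above 0, with medians of -0.31, 0.01, 0.87, -0.13 and 0.62 on arrays 1 to 5 and summed signals of 18537 to 49574 in kaolin against 21954 to 30411 in saline. Ogn stood at 0.34 ± 0.93 and Igf2 at 0.30 ± 0.52. On arrays 3, 4 and 5, where those medians were 0.87, -0.13 and 0.62, Spp1 was at 3.98, 4.02 and 4.41 and Gpnmb at 3.81, 3.32 and 3.86. Since Spp1 and Gpnmb ranked 1 and 7 of all tested probes by mean ratio, this contrast is only a description.

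Choroid plexus markers ran the other way, with 0 of 6 means above 0 and summed signals of 1146 to 3619 in kaolin against 1546 to 54160 in saline. Ttr stood at -2.85 ± 1.80 and Otx2, well above background in 1 kaolin and 4 saline samples, at -1.78 ± 1.26 (SD, n = 5 each). Ratios of Ttr on arrays 1 to 5 were -4.11, -1.89, -4.29, -3.85 and -0.12. Endothelial and pericyte markers lay near 0, with 6 of 9 means above 0, Kcnj8 at 0.15 ± 0.28, Abcb1a at -0.16 ± 0.25, and summed signals of 13931 to 18554 in kaolin against 14674 to 17468 in saline; Tek was well above background in no sample. Oligodendrocyte markers had 3 of 6 means above 0, with Cnp at 0.13 ± 0.44 and summed signals of 133795 to 239366 in kaolin against 238301 to 271355 in saline. Neuron markers had 1 of 9 means above 0, with Rbfox3 at -0.33 ± 0.44, Camk2a at -0.33 ± 0.40, and summed signals of 71170 to 110381 in kaolin against 86694 to 110907 in saline. In limma 0 of the 64 tested marker genes passed. The part of these cell types in the members' ratios was not tested.

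**Figure D5:**
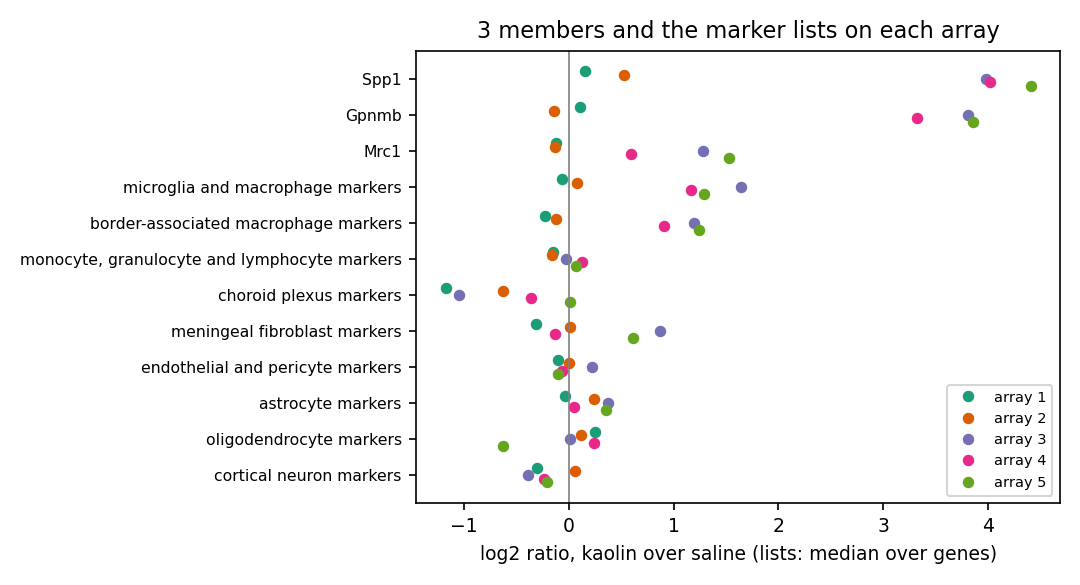
Log2 ratio of kaolin over saline (x axis) on each array (coloured points) for Spp1, Gpnmb and Mrc1 and, as the median over genes, for 9 lists of cell type markers (rows). Microglial and border-associated macrophage medians lie between 0.90 and 1.64 on arrays 3, 4 and 5 and between -0.23 and 0.08 on arrays 1 and 2; monocyte, granulocyte and lymphocyte medians lie between -0.16 and 0.13 on all 5 arrays.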

How the data were processed

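Per the file headers, the arrays were read with Agilent Feature Extraction 10.1.1.1. Mean spot signals and local backgrounds are raw intensity values, per the file headers, and processed signals are intensity values after background subtraction and normalization of the dyes. Deposited log10 ratios divide Cy5 by Cy3, per the file headers, and spot flags are other values, 0 or 1. The authors' deposited series matrix holds log2 ratios; each column correlated with the software's Cy5 over Cy3 ratio at -1.00 to -0.98 across probes, which gives its direction as kaolin over saline, while no source used here gives its normalization. Its column medians were 0.02, -0.05, -0.02, 0.09 and -0.10.

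Outlier spots (86 to 147 per array) were left out. Signals were background-corrected with normexp (offset 50) and loess-normalized within arrays, control spots having no weight, and spots of a probe were averaged. Analysed values were log2 ratios, kaolin over saline; channel signals were further scaled between arrays (Aquantile). No spot was saturated. A probe was tested if well above background in either channel on at least 3 arrays. Ratios were fitted against 0 in limma 3.58.1 (R 4.3.3), two-sided, with Benjamini-Hochberg adjustment over 29106 probes at 0.05; the array pairs the samples. The fit was run on simulated independent arrays with probe SDs smaller than those observed. That run does not show how the fit performs at the spread of these data. A gene is its brightest probe. Symbols were updated through RefSeq (GRCr8), and probe positions are on rn4. Member genes, lists and tests were chosen with earlier results of these data known. Every member was named; of each list, the 2 highest and 2 lowest means (of marker lists, the 2 largest in size, with Gfap, Aif1 and Ttr), and the 3 genes nearest to a member whose mean exceeds 0.5 in size. Some genes that this rule or these lists hold are not reported here.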

Additional observations from a re-analysis of the deposited data

How the results depend on the processing

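The number of arrays and the absence of exchanged dyes limit these results, and values of dim probes (Msr1, Cd163) depend on background treatment. No probe passed in limma over all 5 arrays (5281 at an unadjusted p under 0.05). Leaving out each array in turn gave 0 to 1518 probes past the threshold, 0 to 1 member probes and 0 to 8 pathway genes, with each highest count without array 2. Array weights gave 3493 probes, 5 member probes and 17 pathway genes (14 of them higher in kaolin and 3 lower) and took Spp1 to 3.27, Gpnmb to 2.81, Msr1 to 0.79 and Axl to 0.56, each past the threshold (adjusted p = 0.0423). Msr1 entered the test through its kaolin samples alone, so a positive ratio was built into its selection. Median centring in place of loess gave 22 probes, all lower in kaolin, with the median of all probes at -0.10, and turned Mertk to -0.0719 and Gas6 to -0.0589; the cause was not tested. The fit with no replicate block, which ignores that 2 samples share an array, gave 3 probes and 0 member probes, and changed the call of no member; the array itself is the block in every other fit. Leaving out arrays moved Spp1 between 2.17 and 3.23, Gpnmb between 1.77 and 2.78, Msr1 between 0.53 and 0.82, Mrc1 between 0.41 and 0.82, Axl between 0.41 and 0.62, Gas6 between 0.15 and 0.26, Cd163 between 0.14 and 0.32, Mertk between 0.03 and 0.10 and Cd36 between -0.16 and -0.0070. The remaining settings (no background subtraction, offset 0, processed signals, the software's log ratio, the authors' values, either filter on dim probes, the slide as a block or alone, and the median over probes) kept every sign and call of the 9 members; the strictest filter did not test Msr1 and Cd163. These settings are not all separate. The slide alone is the same fit as leaving out array 5, and the authors' values nearly repeat the software's log ratio. Turning the sign of an array was not run, since array 2 correlated under -0.3 with 1 other array only.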
